A study of Homo sapiens with 8 samples.

Results

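Poly(A) peaks at genes of small noncoding RNAs were described in the merged poly(A) 3′-sequencing reads of Kelly and Kelly E9R neuroblastoma cells. A peak was a member when it overlapped by at least 1 bp the span of a GENCODE release 44 gene of type snRNA, snoRNA, scaRNA, miRNA, misc_RNA, ribozyme or nuclear rRNA on chromosomes 1 to 22 or X, extended by 100 bp on each side. This rule used position alone and found 507 of the 153624 deposited peaks. The members lay at 518 of 7008 annotated small RNA genes.

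Kelly is an established MYCN-amplified neuroblastoma cell line, and Kelly E9R is a derivative whose CDK12 carries a point mutation at the cysteine that THZ531 binds. THZ531 binds CDK12 and the related kinase CDK13 covalently and blocks both, which act on RNA polymerase II during transcription. Per the labels, both lines received DMSO or 400 nM THZ531 for 6 h, which gives 4 groups of 2 libraries. The study's methods give a lower dose of THZ531 for these cells than the labels do, so the dose is uncertain. The peaks were called on the merged reads of all 8 libraries, so the values below are those of the pool, no value has a replicate, and neither THZ531 with DMSO nor Kelly with Kelly E9R could be compared. As a check of the label, the adrenergic neuroblastoma markers HAND2 and MYCN had a peak at an annotated transcript end.

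Small noncoding RNAs are mostly made without a stable poly(A) tail. Spliceosomal snRNAs are transcribed by RNA polymerase II and end through the Integrator complex, whereas U6, 7SK, 7SL, Y RNA, RMRP and RPPH1 are RNA polymerase III products that end at runs of T. Most snoRNAs and scaRNAs are released from introns of host genes and trimmed at both ends, and short oligo(A) tails can be added to them during maturation and decay. miRNAs are cut as hairpins from longer, often polyadenylated, primary transcripts. The library kit primes on runs of A and reads outward from the primed position, so a peak of about 100 bp lies directly before that position. The downstream edge of a peak, read on the strand of the small RNA gene, is called its 3′ end here.

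The annotated gene ends at which member peaks stopped are shown first, because the results turn on the sequence that follows them. Each line gives 30 bases of the GRCh38 gene strand, 5′ to 3′, with the last 15 bases of the gene in lower case and the 15 bases after it in capitals. The first group holds the 10 genes with the strongest peak ending within 10 bp of the annotated 3′ end. These are 7SK, which restrains the elongation kinase P-TEFb, the 7SL genes RN7SL2 and RN7SL3 of the signal recognition particle RNA, the U6 copy RNU6-4P, the minor spliceosome RNA RNU6ATAC, the U1 variant RNVU1-7, the Cajal body RNAs SCARNA2 and SCARNA10, the C/D box snoRNA SNORD82 and the H/ACA box snoRNA SNORA77B.
7SK, chr6:52995936-52995965 (+): agtctgcctttctttTGACCCATTACCCAT
SCARNA2, chr1:109100598-109100627 (+): gcgattctgatctggGCACGGCCACCGGGC
RNVU1-7, chr1:148038738-148038767 (-): ccgcgctttcccctgAATTTTTGTAATGAA
RN7SL2, chr14:49862535-49862564 (-): gagaccccgtctcttTTGCCCCCCTCCCTC
SNORD82, chr2:231460356-231460385 (-): agtgtgctgatgtgcTGTGTATAGAAATTT
RNU6-4P, chr3:181231829-181231858 (+): gcgttccatatttttTAATTGAAAATCATT
SCARNA10, chr12:6510537-6510566 (+): ggtaatctgatggctGCAAGTGCTGGGTGT
SNORA77B, chr22:20126512-20126541 (+): cctggggacacaggtGCTTCCTGGGGAGCC
RNU6ATAC, chr9:134164424-134164453 (-): taaccatcgttttttTTTTTTTGGTGTTTT
RN7SL3, chr14:49853601-49853630 (-): tgagaccctgcctctTTTGAGTTCTCACCT

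The second group holds, for 7SL, 7SK and Y RNA, the copy with the strongest peak that ended at the gene end and before A-rich sequence. In these lines the copy is followed by A in the genome itself. By the same definition, RNVU1-7 and RNU6-4P of the first group also had A-rich sequence after the peak.
RN7SL731P, chr1:10306743-10306772 (+): tgagaacctgtctttAAAAAAAAAAAAAAA
RN7SKP187, chr7:112288938-112288967 (+): agtctgcctttcttaAAAAAAAAAAAAAAA
RNY3P1, chr5:79170219-79170248 (-): cttgactaacctttgAAAAACATGAGCTTT
The 15 bases after the gene were A at 15 positions in RN7SL731P and RN7SKP187 and at 7 positions in RNY3P1. In the first group they were A at 7 positions in RNU6-4P, 6 in RNVU1-7, 5 in SNORD82, 4 in 7SK, 2 in SCARNA2, SCARNA10 and RN7SL3, 1 in SNORA77B and 0 in RN7SL2 and RNU6ATAC. In 7SK, RN7SL2, RN7SL3, RNVU1-7 and SCARNA10 the summit of the peak lay between 93 and 97 bp before the annotated end. Extended reads that start anywhere between the summit and that end can cover it, so the summit does not place the reads at the gene end. In SNORD82, SNORA77B and SCARNA2 the summit lay 419, 240 and 330 bp before the annotated end. These 3 wide peaks also touch an exon of NCL, an exon of RANBP1 and an lncRNA end, so their strongest signal is not at the gene end.

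Peaks were unevenly spread over the RNA types. Of 49 scaRNA genes, which guide the modification of snRNAs in Cajal bodies, 19 had a peak (38.8%, 95% Wilson interval 26.4 to 52.8). Of 939 snoRNA genes, which guide the modification of rRNA, 162 had a peak (17.3%, 15 to 19.8). The share was 6.79% (5.74 to 8.02) for snRNA genes, with 128 of 1884, and 5.85% (4.95 to 6.91) for misc_RNA genes, with 129 of 2204. It was 3.89% (3.10 to 4.86) for miRNA genes, with 73 of 1877. Of 47 rRNA genes 5 had a peak (10.6%, 4.63 to 22.6), and of 8 ribozyme genes 2 did (25%, 7.15 to 59.1), with wide intervals. The interval of the snoRNA share lay above those of the snRNA, misc_RNA and miRNA shares, and below that of the scaRNA share. The snoRNA type also holds 342 entries outside the named families, of which 7.60% had a peak. The intervals of H/ACA box genes (20.9 to 32.7) and C/D box genes (20.2 to 29.7) taken alone overlapped that of scaRNA genes. These intervals cover counting error only, and genes of 1 family share sequence and host genes. Over all types the share was 7.39% (6.80 to 8.03).

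**Figure D1:**
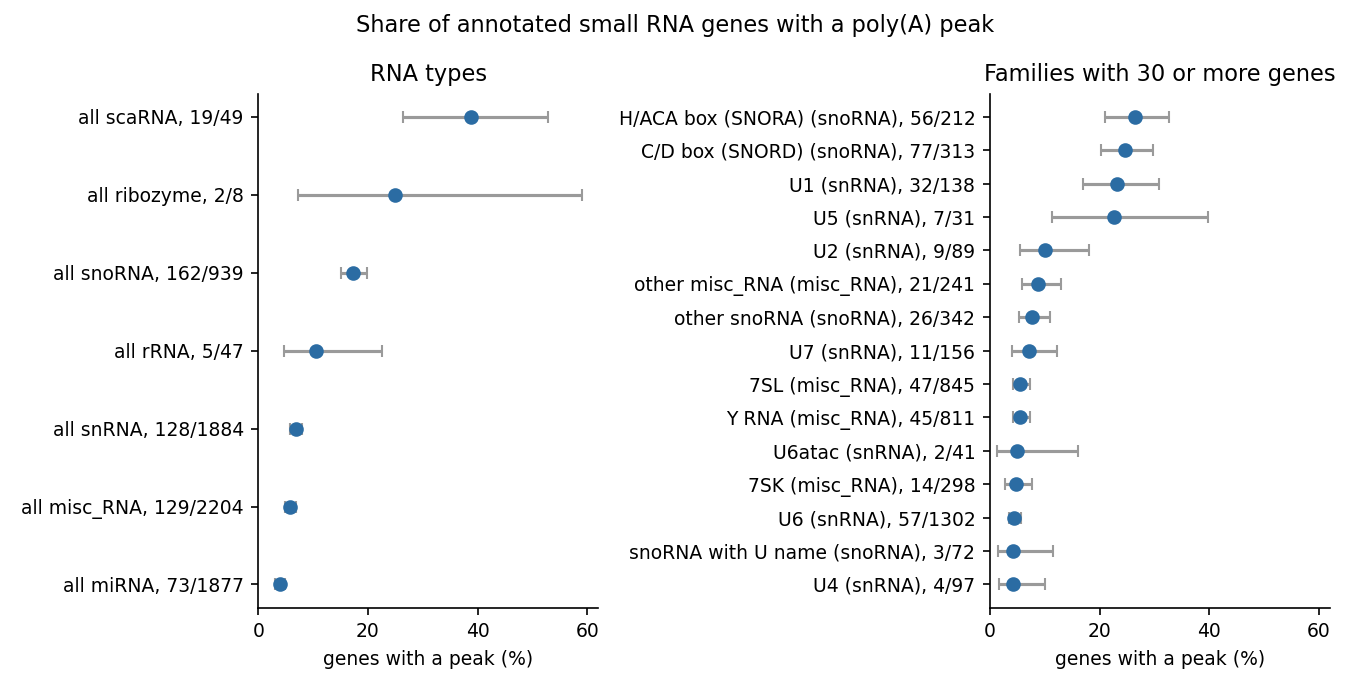
Share of annotated small RNA genes with a peak in the gene span extended by 100 bp, in percent of genes, by RNA type (left) and by family with 30 or more genes (right). Points are shares with 95% Wilson intervals, the labels give genes with a peak over all genes, and scaRNA, ribozyme and snoRNA genes lead among the types while H/ACA and C/D box snoRNA genes (26.4% and 24.6%) lead among the families.

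Named genes and copies differed within families. Peaks lay at 35 of 52 named genes of U1, U2, U4, U5, U6, 7SK, 7SL and Y RNA (67.3%, 53.8 to 78.5), but at 181 of 3560 loci of the same families that carry a pseudogene symbol or only a family label (5.08%, 4.41 to 5.86). For U1, 19 of 31 named genes, variants included, and 13 of 107 copies had a peak. For U6, 3 of 6 named genes and 54 of 1296 copies did. Reads could map to up to 20 loci, so a peak at 1 of several near-identical copies need not come from that copy. H/ACA box genes (56 of 212, 26.4%) and C/D box genes (77 of 313, 24.6%) had similar shares, with intervals of 20.9 to 32.7 and 20.2 to 29.7.

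The strength of a peak is given below as the −log10 q and the fold enrichment over local background, both as deposited. It is also given as the pileup, the number of extended reads that the peak caller counted over the summit. No pileup exceeded 200, and the methods name no setting for duplicate reads. A count of reads with duplicates removed is therefore possible, and strength is not read as abundance. Member peaks were stronger than the other peaks on the same chromosomes. Their median fold enrichment was 7.14 (quartiles 5.52 and 9.82) against 6.29, their median −log10 q was 9.26 (5.84 and 16.3) against 6.87, and their median pileup was 14 against 9. A −log10 q of at least 5, the study's threshold, was reached by 419 of 507 members (82.6%) and by 73.5% of all deposited peaks. Among peaks with genes on 1 strand only, 418 of 504 members and 73.6% of 124123 other peaks reached it, a difference of 9.32 percentage points (95% Newcombe interval 5.78 to 12.4). The difference was of the same order among intronic peaks (10.1 points, 4.74 to 14.6), while at annotated transcript ends it was −0.758 points (−9.37 to 3.94). Of the 100 peaks with the highest −log10 q on these chromosomes, 6 were members, although the members made up 0.332% of the peaks and their windows 0.0762% of the bases.

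The strongest member peaks belonged to the major spliceosomal RNAs. A U2 copy (chr17:43273082-43273320) had a −log10 q of 93.4, a fold enrichment of 27.6 and a pileup of 82, and RNU2-1 (chr17:43233390-43233982) had 92, 22.3 and 92. Both lie in an intron of CCDC200, whose span holds a U2 gene array with 4 member peaks. The U1 variant RNVU1-34 followed with a −log10 q of 86.4, and then SNORD3D, a gene of the U3 snoRNA needed for rRNA cleavage, with 85.4. 7SK reached 79.8 (chr6:52995588-52995947, pileup 71). Its peak was assigned to an entry named 7SK of type misc_RNA, which overlaps the entry RN7SK of type snRNA at the same locus. Other strong peaks were those of SNORD118 (U8) with 69.6, the 7SL copy RN7SL5P with 68.4, SCARNA2 with 67.1, RNVU1-7 with 66.4, RN7SL2 with 61.2 and RPPH1, the RNA of RNase P, with 61.1. The 7SL copy RN7SL4P had 59.3, and the Y RNA genes RNY1 and RNY4, whose RNAs bind the Ro protein, had 58.3 and 48.0. After SCARNA2, the strongest peaks at genes annotated as type scaRNA were those of SCARNA17 (30.6), SCARNA11 (23.6), SCARNA21 (22.1) and SCARNA5 (21.2). The annotation types some SCARNA genes as snoRNA, and they are counted there, among them SCARNA10 (34.9) and SCARNA12 (22.5).

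Medians differed less between types than single peaks did within them. The median −log10 q was 13.6 for scaRNA, 11.4 for miRNA, 10.2 for snoRNA, 9.27 for snRNA and 7.71 for misc_RNA peaks, and the lowest members of the snRNA and snoRNA types were at 1.61 and 1.56. The median pileup was 18.0 at snoRNA genes and 10.0 at misc_RNA genes. The 5 rRNA peaks were those of RNA5-8SN3 (−log10 q 45.1), the 5S genes RNA5S16 (14.3), RNA5S6 (12.1) and RNA5S5 (7.40), and the 5S copy RNA5SP343 (3.47). The RNA5-8SN3 peak, 950 bp wide, ended 180 bp before the end of this 153 bp gene, with its summit 1043 bp before that end. It thus lay upstream of the gene and was a member only through the 100 bp flank. The peaks at RNA5S16 and RNA5S6, 2 near-identical repeats on chromosome 1, both ended 127 bp past the gene.

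**Figure D2:**
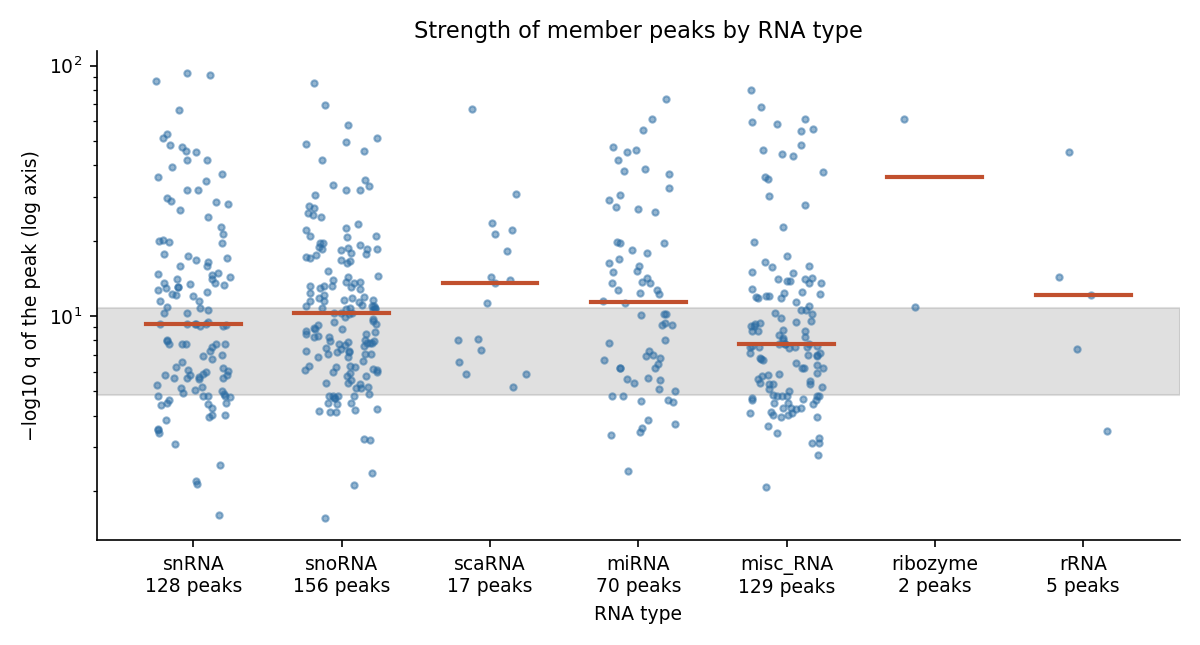
Strength of the 507 member peaks as −log10 q (log axis) by RNA type. Each point is 1 peak, red bars mark medians (13.6 for scaRNA, 7.71 for misc_RNA), and the grey band spans the quartiles of all other peaks on chromosomes 1 to 22 and X (4.83 to 10.8), above which every type has peaks.

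Most member peaks lay at genes inside a host. A host was a protein-coding or lncRNA gene on the same strand with an intron that held the whole small RNA gene, and 320 of 507 peaks (63.1%) belonged to such genes. A peak was found at 330 of 3054 genes in a host intron (10.8%, 9.75 to 12) and at 188 of 3954 other genes (4.75%, 4.13 to 5.46). The contrast was widest for scaRNA genes (18 of 26 against 1 of 23) and snoRNA genes (137 of 533, 25.7%, against 25 of 406, 6.16%). It was 79 of 768 against 50 of 1436 for misc_RNA genes. For miRNA genes the shares were 3.81% in a host intron and 4.01% elsewhere, with intervals that overlapped. Whether the reads came from the host's transcript was not tested.

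Peaks at genes outside host introns were fewer, and their medians were higher. The median −log10 q was 8.38 at genes in a host intron and 12.1 at other genes, and for snoRNA genes it was 9.75 and 17.7. Member peaks fell on introns of coding or lncRNA genes in 269 cases (53.1%), against 61.0% of the other peaks on the same chromosomes. They fell on transcript end windows in 77 cases (15.2% against 14.4%) and on exons in 79 (15.6% against 13.8%). Intergenic sequence held 82 (16.2% against 10.8%). By type, 22 of 70 miRNA peaks lay in a transcript end window (31.4%), against 24 of 156 snoRNA (15.4%), 16 of 128 snRNA (12.5%) and 13 of 129 misc_RNA peaks (10.1%). Exons held 22.9% of miRNA, 23.7% of snoRNA, 10.9% of misc_RNA and 6.25% of snRNA peaks.

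Member peaks had 273 hosts, of which 228 were protein-coding and 45 were lncRNA genes, and 235 hosts had 1 such peak. SNHG14, the long host transcript of the imprinted snoRNA clusters on chromosome 15, had the most, with 8. CCDC200 had 4, and RPL23A had 3, at SNORD4A, SNORD4B and SNORD42B. Hosts with 2 each included the ribosomal protein genes RPS12 and RPL3, the ribosomal scaffold gene RACK1, the RNA polymerase subunit gene POLR2F, and the lncRNA genes SNHG12 and TTC28-AS1. In ribosomal protein hosts as a group, 33 of 65 small RNA genes had a peak (50.8%, 38.9 to 62.5). In SNHG genes, GAS5 and ZFAS1 it was 33 of 131 (25.2%, 18.5 to 33.3), and in the other hosts of snoRNA and scaRNA genes 92 of 370 (24.9%, 20.7 to 29.5).

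Many peaks in snoRNA hosts touched exons of coding or lncRNA genes. This was so for 18 of 32 peaks in ribosomal protein hosts, 18 of 29 in SNHG genes, GAS5 and ZFAS1, and 20 of 90 in the other hosts. The peak at SNORA33 (−log10 q 58.0) covered the end of RPS12, and that at SNORA10 (49.6) the ends of RPS2 and NDUFB10. Their summits lay 128 and 219 bp past the snoRNA. By contrast, the peak at SNORD96A in RACK1 touched no exon and ended 7 bp past the snoRNA, with a −log10 q of 13.9.

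Member peaks ended at the end of the small RNA more often than mirror symmetry gives. The 3′ end of 136 of 504 peaks with small RNA genes on 1 strand (27.0%, 23.3 to 31.0) lay within 10 bp of the annotated 3′ end. As background, the same peaks read on the opposite strand ended within 10 bp of the gene's 5′ end in 57 cases (11.3%). The exact McNemar test of the 104 and 25 peaks that matched at only 1 of the ends gave an adjusted p of 1.79e-12 (two-sided, Benjamini-Hochberg over 3 strand comparisons). Peaks are not replicates of a condition, and copies of a family and peaks of a host share sequence, so this p and those below are too small. Among 8576 narrow peaks of the other set, no wider than 120 bp and all in transcript end windows, 57.5% ended within 10 bp of a coding transcript end. Among members of that width, 100 of 274 (36.5%) ended within 10 bp of the gene's 3′ end. These members were not chosen for lying in a transcript end window.

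By type, the gene end was matched more often than its mirror image at snoRNA, scaRNA and misc_RNA genes. It was matched by 67 of 156 snoRNA peaks (42.9%) against 24 in the mirror image, 11 of 17 scaRNA peaks against 1, and 36 of 129 misc_RNA peaks against 15. For snRNA genes the counts were 20 of 128 against 14, and for miRNA genes 1 of 67 against 2. Within the snoRNAs, H/ACA box genes had 27 of 56 against 1, and C/D box genes 31 of 74 against 20. C/D box genes with a peak had a median length of 85.5 bp and H/ACA box genes one of 133 bp, so that a peak of about 100 bp that covers a C/D box gene comes near both ends. Y RNA genes, also near the width of a peak, had 16 of 45 against 15, whereas the longer 7SL genes had 15 of 48 against 0. Among genes shorter than 80 bp or longer than 120 bp, a split made after the values were seen, the counts over all types were 87 of 303 against 10.

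**Figure D3:**
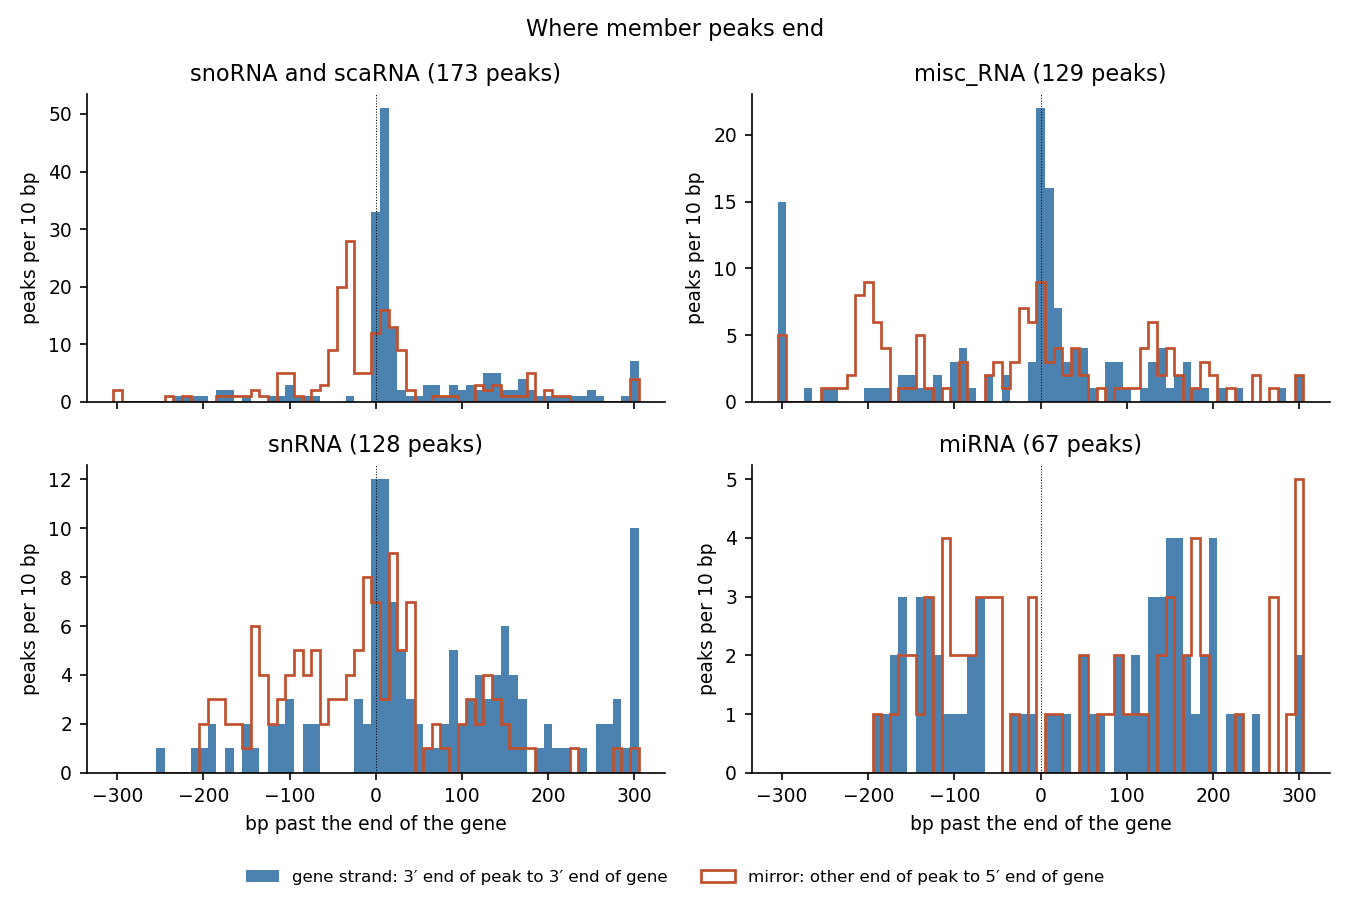
Distance in bp from the annotated 3′ end of the gene to the 3′ end of the peak on the gene strand (blue bars) and, as mirror image, from the gene's 5′ end to the other end of the same peak (red line), in 10 bp bins for 4 groups of RNA types, with distances beyond 300 bp drawn in the outermost bins. snoRNA and scaRNA peaks gather just past the gene end, misc_RNA peaks gather there in smaller number, and miRNA peaks show no such column (1 of 67 within 10 bp).

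Peaks that ended at snoRNA genes did so a few bp past the annotated end. The 67 such peaks ended a median of 5.0 bp past it (quartiles 3 and 7), and 58 of them ended past it. The 11 scaRNA peaks had a median of 4.0 bp. Narrow peaks of the other set that ended within 10 bp of a coding transcript end had a median of 0 bp (−2 and 3). Of the 67 snoRNA peaks 63 lay at genes in a host intron, and 47 touched neither an exon nor a transcript end window. Of the 162 snoRNA genes with a peak, 135 were at least 75 bp long. The others, among them SNORD82 and SNORD64, are shorter than any read the study kept. A kept read there thus cannot lie wholly within the annotated snoRNA, and what else it holds was not tested.

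The sequence after the peak separated these ends by RNA type. A-rich sequence, here a run of 6 A or 7 A among 10 bases in the 50 bp that follow the peak's 3′ end, can prime reverse transcription from the transcript body. It followed 30 of the 36 misc_RNA peaks at gene ends (83.3%), among them 13 of 15 at 7SL and 15 of 16 at Y RNA genes, but 18 of 67 at snoRNA genes (26.9%) and 4 of 11 at scaRNA genes. In the 15 bases after the gene, the median number of A was 13 at 7SL and at Y RNA genes and 4.0 at snoRNA and at scaRNA genes. Of the 67 snoRNA peaks, 32 had neither A-rich sequence nor a motif. When peaks before A-rich sequence are left aside, 21 H/ACA box peaks ended at the gene end against 1 in the mirror image, and 26 C/D box peaks against 17. For misc_RNA genes this left 6 against 10, and for snRNA genes 8 against 13.

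**Figure D4:**
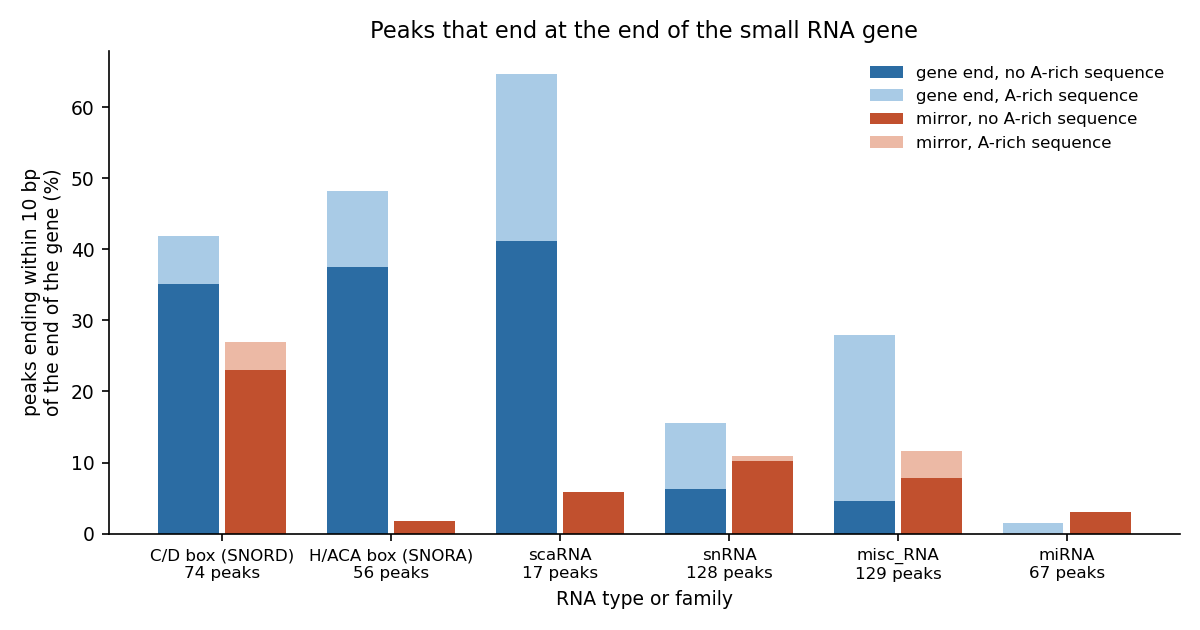
Share of peaks that end within 10 bp of the end of the small RNA gene, in percent of the peaks of each RNA type or family. Bars are for the gene strand (blue) and the mirror image (red), each split by A-rich sequence within 50 bp after the peak on its own strand. H/ACA box and scaRNA bars are mostly without A-rich sequence (21 of 27 and 7 of 11 peaks), and the misc_RNA bar is mostly with it (30 of 36).

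A-rich sequence after the gene was also common at copies without a peak. It lay within 20 bp after 38 of 47 7SL genes with a peak (80.9%) and after 71.7% of 7SL genes without one, a difference of 9.17 points (95% Newcombe interval −4.56 to 18.5). For Y RNA genes the shares were 84.4% and 78.9% (5.59 points, −7.92 to 14), and for U6 genes 47.4% and 48.5% (−1.15 points, −13.8 to 11.9). Among C/D box genes it followed 3 of 77 with a peak and 49 of 236 without one (−16.9 points, −23 to −8.49). The direction was the other way among H/ACA box genes (25% and 20.5%, 4.49 points, −7.30 to 18.4) and miRNA genes (15.1% and 3.60%, 11.5 points, 4.95 to 21.4).

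Over all members, motif and A-rich sequence were both more frequent on the strand of the small RNA gene. At least 1 of the study's 12 motifs for polyadenylation sites (PAS), such as AATAAA, lay in the 100 bp before the 3′ end of 252 of 504 peaks (95% Wilson interval 45.7% to 54.3%) and in the mirror window of 174 (34.5%). The exact McNemar test gave an adjusted p of 1.37e-07. A-rich sequence followed 231 peaks (45.8%, 41.5 to 50.2) and was found in the mirror window of 101, with an adjusted p of 1.85e-17. The difference of 25.8 points was 2.78 points under the study's own rule of 25 A with at most 3 mismatches, which 15 of the 504 peaks met. At genes in a host intron the difference in A-rich sequence was 37.7 points over 318 peaks, and at other genes 5.38 points over 186 peaks. The difference between these 2 groups was not tested.

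Both features were nevertheless less frequent at members than at other peaks, each read on the strand of its own gene. That was the small RNA gene's strand for members and the strand of the overlapped coding or lncRNA gene for other peaks. Among all members, 60 lay at small RNA genes on the opposite strand of a coding or lncRNA gene. How far this unlike choice of strand moved the shares below was not tested. A motif was found at 58.0% of the 124123 other peaks, so the members were lower by 7.96 points (a difference of −7.96, 95% Newcombe interval −12.3 to −3.61). A-rich sequence followed 67.8% of the other peaks, a difference of −21.9 points (−26.2 to −17.6), and it was −22.5 points among intronic peaks alone. Under the rule of 25 A, the shares were 2.98% of members and 6.43% of the other peaks (−3.45 points, −4.63 to −1.57). A motif without A-rich sequence was about as frequent, with 24.8% of members and 25.7% of the others (−0.911 points, −4.49 to 3.05). The remainder were peaks with neither feature, which made up 148 of 504 members (29.4%) and 6.53% of the other peaks. Among intronic peaks these were 25.5% and 5.57%, and among peaks at transcript ends 26.3% and 6.21%.

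U6 and miRNA peaks carried motifs most often. A motif preceded 43 of 58 U6 peaks on the gene strand against 17 in the mirror window, and 45 of 67 miRNA peaks against 31. The 7SL peaks had 22 of 48 against 8, and Y RNA peaks 20 of 45 against 25. No motif lay before the 5 rRNA or the 2 ribozyme peaks. A motif within a conserved small RNA recurs at each of its copies, and motifs and peaks of 1 family are therefore not independent.

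Of the 23 annotated genes in a fixed list of small nuclear RNAs, 17 had a peak. Their median −log10 q was 19.8, with RNU2-1 highest and RNU7-1, the RNA that guides histone mRNA processing, lowest at 4.40. Peaks were found at RNU1-1 (45.2), RNU1-3 (20.2), RNU2-2P (53.2), RNU4-2 (48.0), RNU5B-1 (13.6), RNU5D-1 (5.01), RNU5E-1 (12), RNU5F-1 (47.3), RNU6-1 (7.93), RNU6-8 (12.7) and RNU6-9 (9.48), and at the minor spliceosome genes RNU11 (19.8), RNU12 (6.97), RNU4ATAC (39.3) and RNU6ATAC (28.6). No peak lay at RNU1-2, RNU1-4, RNU4-1, RNU5A-1, RNU6-2 or RNU6-7.

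At the snRNA genes of RNA polymerase II the peaks ran far past the gene. Of 13 such genes with a peak, 11 had a 3′ end more than 100 bp past the annotated end, whereas 0 peaks reached more than 100 bp past the 5′ end on the other side, where the furthest was 42 bp. The peak at RNU2-1 was 593 bp wide and ended 397 bp past the gene, that at RNU4-2 ended 278 bp past it, that at RNU5B-1 261 bp, that at RNU5F-1 162 bp and that at RNU1-1 146 bp. In these 5 peaks the summit lay inside the gene, between 62 and 91 bp before its end. At RNU5E-1, RNU5D-1, RNU12 and RNU7-1 the summit itself lay past the gene, by 254, 183, 127 and 137 bp. Of these, the RNU5E-1 peak also touched an lncRNA exon, the RNU12 peak an end window of CYB5R3 and the RNU7-1 peak an exon of C12orf57, and which transcript gave the reads was not tested. The peaks at RNU11, in an end window of lncRNA genes, and RNU2-2P, at an exon of WDR74, ended 3 and 13 bp past the gene.

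The RNA polymerase III genes ended closer to their annotation. Of 9 annotated genes in the fixed list of Pol III and catalytic RNAs, 9 had a peak, with a median −log10 q of 55.0. Together with U6 and U6atac genes, 8 of 13 peaks ended within 10 bp of the gene end and 2 more than 100 bp past it. RN7SL2, RN7SL3 and RN7SK ended 4, 2 and 1 bp before the annotated end, with summits 93, 94 and 95 bp before it. RMRP, the RNA of RNase MRP, ended 3 bp past it, RNU6-9 4 bp past it and RNU6-1 at 0 bp. The Y RNA gene RNY3 ended 6 bp before it, whereas RNY4 and RNY1 ended 28 and 82 bp past it. RPPH1 ended 157 bp past the gene, with A-rich sequence after the peak, and RNU6-8 195 bp past it. This grouping by polymerase was made after the values were seen, and no test was run on it.

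**Figure D5:**
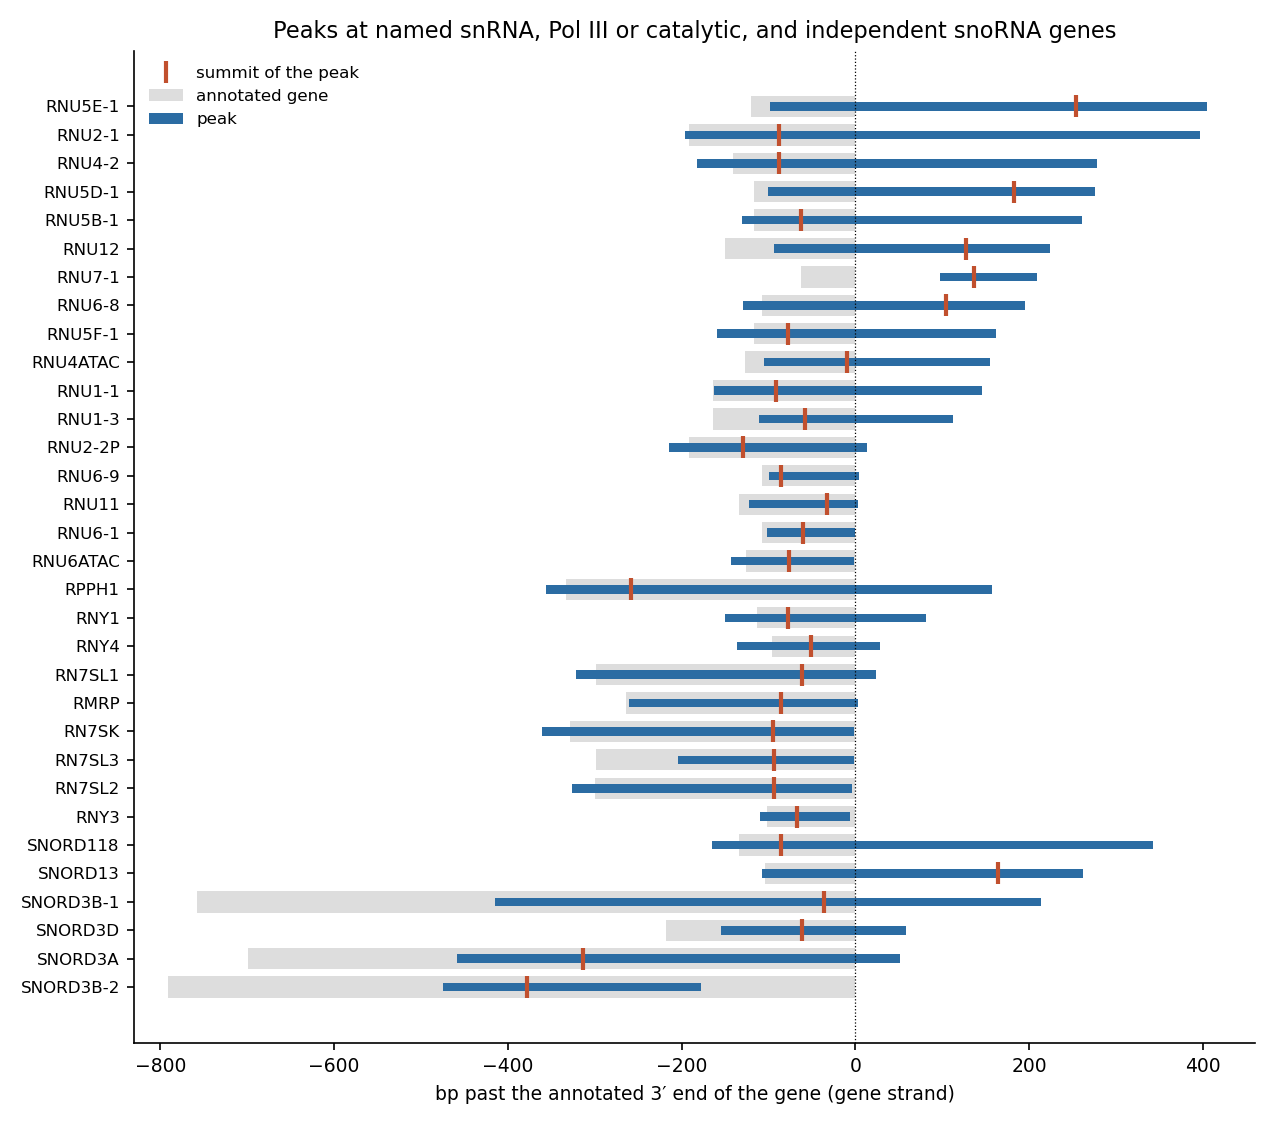
Span of the peak (blue), its summit (red tick) and the annotated gene (grey) in bp relative to the gene's 3′ end, for the genes with a peak in the lists of small nuclear RNA genes (top), Pol III and catalytic RNA genes (middle) and independently transcribed snoRNA genes (bottom). Peaks at RNU2-1, RNU4-2 and SNORD118 run 397, 278 and 343 bp past the gene, while those at RN7SK, RN7SL2 and RNU6ATAC stop within 10 bp of its end.

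Among snoRNA genes with a promoter of their own, 6 of 7 listed genes had a peak. These were the U3 genes SNORD3A, SNORD3B-1, SNORD3B-2 and SNORD3D, the U8 gene SNORD118 and the U13 gene SNORD13, with SNORD3C as the exception. Their −log10 q ranged from 18.6 at SNORD3B-1 to 85.4 at SNORD3D. SNORD118 ended 343 bp past the gene, in a window that also holds the end of TMEM107, and SNORD13 ended 262 bp past it with its summit 164 bp past it. SNORD3A, SNORD3B-1 and SNORD3B-2 are annotated with spans several times the U3 RNA, so the distance to their annotated end does not give the distance to the mature RNA.

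In the strongest 7SL and 7SK copies the peak ended well inside the gene. RN7SL5P (chr9:9442082-9442292, fold enrichment 31.2) ended 88 bp before the annotated end, RN7SL4P 92 bp before it and the 7SK copy RN7SKP71 91 bp before it. Neither RN7SL5P nor RN7SL4P had a motif or A-rich sequence. The U6 copies RNU6-11P and RNU6-4P, with −log10 q of 51.5 and 45.5, ended 16 and 3 bp past the gene.

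SNORD116 genes, whose loss is linked to Prader-Willi syndrome, had a peak at 7 of 30 numbered copies, and SNORD115 genes at 0 of 48, beside 24.6% of all C/D box genes. The 7 SNORD116 peaks and the peak at SNORD64, all in SNHG14, ended between 3 bp before and 8 bp past the snoRNA, and 1 of the 8 was followed by A-rich sequence. They were weak to moderate, from SNORD116-2 with a −log10 q of 4.49 and a pileup of 5 to SNORD116-21 with 13 and 12. SNORD116-5 (chr15:25062328-25062435) had 12.4 and ended 8 bp past the gene. The 8 genes are 67 to 95 bp long, and 6 of the 8 peaks also came within 10 bp of the 5′ end. At the other imprinted cluster, on chromosome 14, 1 of 9 SNORD113 and 1 of 30 SNORD114 genes had a peak, at SNORD113-4 and SNORD114-10. These ended 98 and 89 bp before the gene end, both before A-rich sequence.

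miRNA genes had few peaks, and these did not end at the hairpin. Of 67 peaks with genes on 1 strand, 40 ended more than 10 bp past the hairpin, 18 more than 10 bp before it, 4 within 10 bp of its 5′ end, 4 inside it and 1 at its 3′ end. The summit lay inside the hairpin in 5. Reads shorter than 75 bases were discarded by the study, so mature miRNAs were outside the measurement. Of the 5 miRNA genes with the strongest peaks, 4 had them at annotated ends of coding transcripts. The peak at MIR7705 (−log10 q 73.3) was in an end window of PABPC1, that at MIR4689 (61.3) of NPHP4, that at MIR1244-1 (46.2) of PTMA and that at MIR3658 (45.0) of UCK2. The fifth was an unnamed gene on chromosome 1 with 2 intergenic peaks (55.1 and 47.4). The first of these had a pileup of 173, the highest of all members, at a fold enrichment of 4.68, where the recovered local background was 36.2 reads per 100 bp.

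The let-7 family, which restrains MYCN and LIN28B, had peaks at 2 of 12 genes. The miR-17-92 cluster, a target of MYCN, and its paralogues had them at 2 of 15, and these 2 genes share 1 peak. Over all miRNA genes the share was 3.89%, and whether these short lists differ from it was not tested. The mature RNAs of the 4 genes with a peak are shown with the seed, bases 2 to 8, in capitals, as RefSeq gives them on GRCh38.p14.
hsa-let-7b-5p, chr22:46113691-46113712 (+): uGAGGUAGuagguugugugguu
hsa-let-7f-5p, chr9:94176353-94176374 (+): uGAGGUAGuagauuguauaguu
hsa-miR-19b-3p, chr13:91351245-91351267 (+): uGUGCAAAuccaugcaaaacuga
hsa-miR-92a-3p, chr13:91351361-91351382 (+): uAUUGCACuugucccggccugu
The let-7 pair shares 1 seed, and the other RNAs have seeds of their own. The peak at MIRLET7B (−log10 q 10.2) ended 163 bp past its hairpin, near the end of the host MIRLET7BHG. The peak at MIRLET7F1 (11.5) ended 92 bp before the hairpin's 3′ end and thus before the mature RNA. It lay in an annotated transcript end window and touched an exon or end of the lncRNA genes MIRLET7A1HG and LINC02603. MIR19B1 and MIR92A1 share 1 peak (12.3, pileup 20), which ended 112 bp past MIR92A1 at the end of MIR17HG. All 3 peaks were preceded by a motif and not followed by A-rich sequence. Of 19 genes of neuronal miRNAs, among them those of miR-9, miR-124 and miR-128, 0 had a peak, beside 3.89% of all miRNA genes, so that this list is too short to tell its share from that of all.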

How the data were processed

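Poly(A) 3′-sequencing libraries (QuantSeq 3′ REV) of 8 samples were processed by the authors. Reads were trimmed, those under 75 bases dropped, and the rest mapped with STAR (2.5.1b) to GRCh38 at up to 20 loci. MACS2 (2.1.1) then called peaks on the merged reads, each extended to 100 bp, without shift. The deposited list holds per peak a fold enrichment (a ratio to local background), the −log10 p and −log10 q, a score and positions, as made by the authors. It has 0 columns per sample and 0 peaks with a strand, so the depth per library is unknown and replicates could not be compared. The handling of duplicate reads is not given in the sources used here. Coverage tracks were not used here.

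The whole-number pileup was recovered from fold and p-value by MACS2's formulas for 100% of peaks (tolerance 0.01), and no pileup exceeded 200, so pileups are not read as abundance. Peaks were set against GENCODE release 44 (basic transcripts), with transcript end windows from 200 bp before to 600 bp after an end. Each member was assigned to the gene with the longest overlap. At members, motif and A-rich sequence were read on the small RNA gene's strand, with mirror windows as background. Other peaks were read on the strand of the coding or lncRNA gene they overlapped. Strands were compared by exact McNemar tests in Python 3.11.15 with scipy 1.17.1 and pysam 0.24.0, which were tested on simulated data. Shares carry 95% Wilson intervals and differences 95% Newcombe intervals, covering counting error only. Peaks with small RNA genes on both strands (3) entered no strand comparison. Named were the 5 strongest genes per RNA type, genes of fixed lists, the 10 hosts with most peaks, the 10 strongest peaks at gene ends and the 2 strongest copies of 6 families. The symbols RNU2-2 and RNY5 were not matched. The RefSeq table gave mature sequences for 59 of 73 miRNA genes with a peak. The members and lists were chosen with earlier results of these data known. Some items that these rules select are not reported here.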

Additional observations from a re-analysis of the deposited data

How the results depend on the processing

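The share of small RNA genes with a peak followed the window and the threshold. It was 5.55% with no flank, 6.75% with 50 bp, 9.16% with 200 bp, 6.14% when a −log10 q of at least 5 was required and 6.24% for genes clear of exons and transcript end windows, against 7.39% as reported. The share of member peaks at genes in a host intron was 63.1%. It was 73.2% with hosts on either strand and 51.3% with protein-coding hosts only. Without genes that also overlap an exon of a coding or lncRNA gene on the same strand, it was 54.4%. The number of members stayed within 1.5 times of 507 under 6 alternatives, from 376 with no flank to 636 with 200 bp. The 3 strand comparisons kept their direction and stayed past 0.05 under all 13 alternatives, of which 1 (by gene length) was chosen after seeing the data. For A-rich sequence, the difference fell from 25.8 to 2.78 points when the study's rule of 25 A with at most 3 mismatches was used. No paired analysis was possible because the deposited list holds no values per sample. Reads of a small RNA and of a host transcript on the same strand cannot be told apart by position, and near-identical copies cannot be told apart where reads map to several loci.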
